A study of Mus musculus with 22 samples.

Results

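The genes described here are 10 isoforms of phospholipase C, named one by one because they make the second messengers that release calcium from internal stores, out of 23453 gene symbols in the count table. They cover 4 classes: beta (Plcb1, Plcb2, Plcb3 and Plcb4), gamma (Plcg1 and Plcg2), delta (Plcd1, Plcd3 and Plcd4) and epsilon (Plce1). The data were read counts from 22 single astrocytes in primary culture, prepared from the cerebral cortex of newborn C57BL/6 mouse pups at postnatal days 0 to 1. Each cell was imaged with the calcium dye Fluo-4 during an acute exposure to ethanol (EtOH), tested with 100 µM ATP, and drawn into a pipette for linear amplification of its RNA and sequencing. The study chose 100 mM EtOH for its sequencing experiments and compared cells collected at different times after it. No label gave the dose or the collection time of a cell. The 6 S-type cells gave a sustained calcium signal to EtOH, the 6 T-type cells a transient signal, the 5 M-type cells a mixture of both, and the 5 NR cells no response, so that all cells, NR included, had received EtOH and ATP and none was left unexposed. Before imaging the cultures had been shaken, treated with 10 µM cytosine arabinoside against other cell types and deprived of serum.

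Phospholipase C enzymes cut the membrane lipid phosphatidylinositol bisphosphate into inositol trisphosphate (IP3), which opens calcium channels of the endoplasmic reticulum, and diacylglycerol (DAG), which activates protein kinase C. The classes differ in what switches them on: G proteins of the Gq family drive the beta isoforms, receptor and non-receptor tyrosine kinases the gamma isoforms, calcium itself the delta isoforms, and small GTPases of the Ras family the epsilon isoform. In astrocytes this route is best known for the calcium rise that follows receptors for ATP, glutamate and noradrenaline.

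No label gave the animal or culture of a cell, so a response type is a single sample here, and the types are described without a test. A level is the mean over the cells of a type of the read count divided by the cell's size factor (normalized count). Intervals are 95% intervals of the pooled reads of a type, or of their split between types, rescaled to the level or ratio. They cover counting error only, and are approximate and can be too narrow where size factors differ within a type, as in T-type. The spread is given by the cells themselves. Total reads ran from 2937786 to 22131076 per cell and size factors from 0.183 to 2.31, both lowest in T-type cell J163_18, with T-type cell J162_16 next in size factor at 0.276. All 12 astrocyte markers had reads, most in Vim, Fabp7 and Slc1a3. All 17 microglial markers also had reads: their summed level, in CPM (reads scaled to a common library total), was 0 to 9.60 for the S-type cells and 0 to 89.1 for the T-type cells. It was 0.315 to 4.50 for the M-type cells and 0.792 to 197 for the NR cells. Reads also fell on 9 of 10 markers of the oligodendrocyte lineage (none on Sox10), 9 of 10 of neurons (none on Slc17a7), 4 of 6 of endothelium (none on Cdh5 and Cldn5) and 7 of 8 of mural cells and fibroblasts (none on Rgs5). Among them Olig1 and Acta2 had reads in all 22 cells and Stmn2 in 20. Summed per cell these lists took 34.0 to 3329 CPM, 38.1 to 2076, 0 to 200 and 14.0 to 7410, and their part in the results was not tested. The numbers in the cell names run in a separate block for each type, so an order of collection or preparation cannot be told apart from the type.

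RefSeq promoters (build GRCm38.p6, 300 bases each, most of them before the transcription start) were found for all 10 isoforms, 13 in all. They are printed for 4 isoforms that the results turn on. Plcd1 separated NR cells from S-type and from T-type cells, and Plcb1 had the most negative ratio of the isoforms. Plcd4 and Plce1 had reads in every cell. Each promoter is written 5′ to 3′ along its gene, with the dinucleotide CG in capitals. The windows are chr9:119093453-119093752 on the minus strand for Plcd1, and chr2:134785914-134786213, chr1:74542639-74542938 and chr19:38523947-38524246 on the plus strand for Plcb1, Plcd4 and Plce1.
Plcd1: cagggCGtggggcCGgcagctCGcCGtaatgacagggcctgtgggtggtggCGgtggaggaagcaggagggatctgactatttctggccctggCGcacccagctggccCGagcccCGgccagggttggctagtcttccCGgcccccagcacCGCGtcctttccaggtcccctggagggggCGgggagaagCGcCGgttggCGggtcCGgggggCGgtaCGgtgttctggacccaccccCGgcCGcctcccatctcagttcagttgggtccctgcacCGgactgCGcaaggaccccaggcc
Plcb1: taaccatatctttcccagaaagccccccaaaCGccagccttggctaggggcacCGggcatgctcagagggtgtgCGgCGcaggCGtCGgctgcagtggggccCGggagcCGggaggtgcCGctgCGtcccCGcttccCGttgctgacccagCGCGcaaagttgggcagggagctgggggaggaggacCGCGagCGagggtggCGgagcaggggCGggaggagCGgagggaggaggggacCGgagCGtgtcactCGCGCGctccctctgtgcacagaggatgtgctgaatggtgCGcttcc
Plcd4: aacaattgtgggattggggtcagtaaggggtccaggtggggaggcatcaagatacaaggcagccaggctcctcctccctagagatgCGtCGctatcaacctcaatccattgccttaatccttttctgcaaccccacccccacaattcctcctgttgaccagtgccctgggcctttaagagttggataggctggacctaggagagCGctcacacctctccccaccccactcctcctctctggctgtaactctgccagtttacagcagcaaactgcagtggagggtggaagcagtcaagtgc
Plce1: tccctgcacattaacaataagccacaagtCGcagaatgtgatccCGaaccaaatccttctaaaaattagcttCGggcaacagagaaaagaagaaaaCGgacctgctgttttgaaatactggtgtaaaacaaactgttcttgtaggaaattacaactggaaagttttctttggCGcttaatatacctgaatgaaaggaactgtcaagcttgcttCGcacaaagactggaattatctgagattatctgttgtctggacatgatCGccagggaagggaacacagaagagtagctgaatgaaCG
The Plcb1 window held 26 CG dinucleotides and the Plcd1 window 22, whereas Plce1 held 8 and Plcd4 3. The median over 32851 mouse promoters of this length was 7. A further start of Plcd1 had 11, a further start of Plcd4 again 3, and the largest number among the isoforms was 50 in Plcb4. The letters TATAAA, searched on both strands, stood in none of the 13 windows, against 13.6% of all promoters. The isoforms read in every cell thus had 8 CG dinucleotides or fewer in these windows, but so did Plcb2 with 5, which had a single read. The Plce1 window lies inside the gene, which is annotated from chr19:38481109, so its most upstream start was not examined.

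Plcd4 had the highest level for its length, 104 normalized counts per kilobase of exon over all 22 cells. Plcd1 followed at 54.4, Plce1 at 52.5 and Plcb1 at 32.2, and Plcb4 stood at 11.3. Plcb3 (4.89), Plcg2 (4.66) and Plcd3 (3.19) were lower still, and Plcg1 (0.0811) and Plcb2 (0.0042) were close to absent at this depth. Plcd1 and Plce1 exchanged places when the longest transcript was used as length, and Plcb3 and Plcg2 when CPM replaced the normalized counts. Amplification from the 3′ end can add reads unevenly along a transcript, so that levels per kilobase of different isoforms are approximate.

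**Figure D1:**
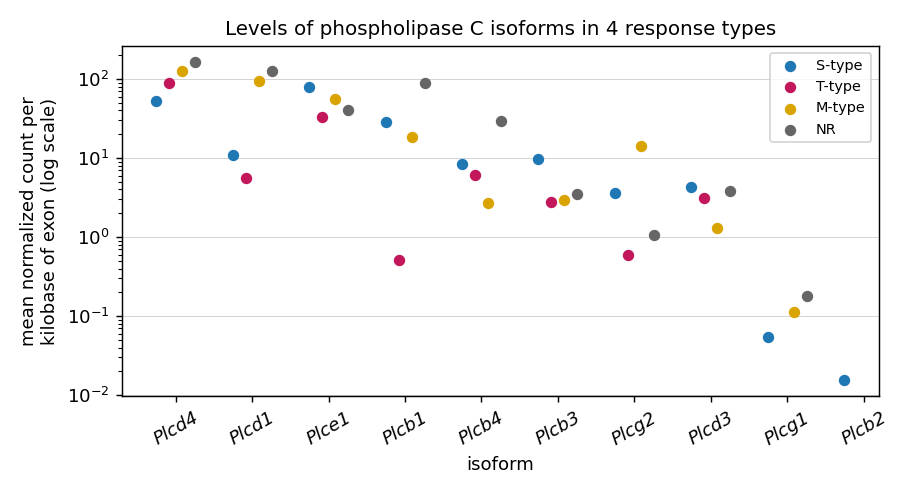
Mean normalized count per kilobase of exon (log axis) of each isoform in the 4 response types, ordered by the mean over all cells; a type with no read has no point. Plcd4 lies near the top in every type, and Plce1 does in S-type and T-type. Plcd1 lies above Plce1 in M-type, and both Plcd1 and Plcb1 do in NR. Plcb1 and Plcd1 are spread widely between T-type and NR.

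Single cells differed in the isoforms they held. Between 2 isoforms (T-type cell J165_23) and 9 (S-type cell J153_6 and M-type cell J174_13) had a read in a cell. The median was 6.5 isoforms for S-type cells, 5 for T-type cells and 8 for both M-type and NR cells. When every cell was thinned to 2937786 reads these medians were 6, 3.5, 6 and 7, so T-type cells remained lowest, with ranges that overlapped the other types. Detection of genes of any kind was also lowest in T-type cells. Before thinning the median number of genes with a read was 9203.5 in T-type, 11356 in S-type, 11300 in M-type and 10944 in NR cells. Genes were not counted after thinning, and the part of this general detection in the lower number of isoforms was not tested. Together the 10 isoforms took 12.5 (T-type cell J162_16) to 533 CPM (NR cell J182_2). The medians were 160 CPM for S-type, 80.8 for T-type, 185.4 for M-type and 245 for NR cells.

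The leading isoform, by level per kilobase within a cell, was Plcd4 in 11 cells, Plce1 in 5, Plcd1 in 3, Plcb4 in 2 and Plcb1 in 1. This order and the shares below cover the named isoforms only and leave out Plch1, of the eta class. Plch1 was at 37.2 normalized counts per kilobase in T-type, 30.9 in M-type, 7.90 in S-type and 5.25 in NR. T-type cell J166_25 held 1534 normalized counts of Plch1 beside 1259 of Plcd4, so its Plcd4 share would be lower with Plch1 counted. In T-type cell J165_23 Plcd4 made up nearly all of the level summed over the named isoforms (99.978%), with a single read of Plce1 beside it. In NR cell J182_2 Plcb1 led with 52.2% and Plcb4 came next with 15.5%. The delta class had the largest median share of the level per kilobase, 53.2% (4.02% to 99.978%), ahead of epsilon at 21.9%, beta at 12.4% and gamma at 0.205%. Epsilon ranged from 21.3% to 51.7% in S-type cells and from 3.49% to 25.5% in NR cells, ranges that overlapped, and it spanned 0.0219% to 79.7% in T-type cells.

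**Figure D2:**
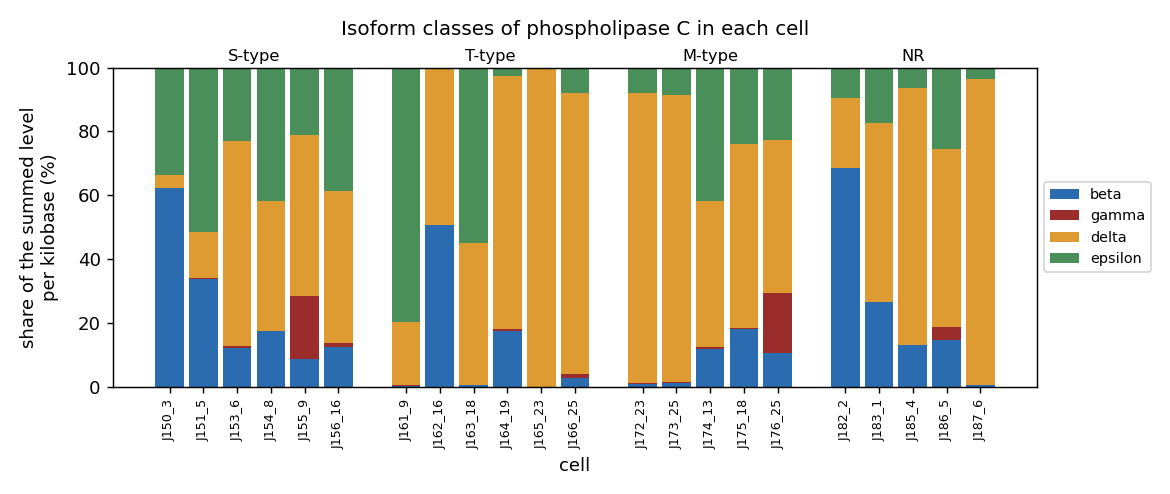
Share of the summed level per kilobase (%, bars stacked to 100) taken by the beta, gamma, delta and epsilon isoforms in each of the 22 cells. The sum covers the named isoforms only, without Plch1, and the cells are grouped by response type. The delta class is largest in most cells, beta leads in S-type cell J150_3, T-type cell J162_16 and NR cell J182_2, and gamma is visible mainly in S-type cell J155_9 (19.6%) and M-type cell J176_25 (18.8%).

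Most levels of a type rested on few cells. Of 34 combinations of isoform and type with more than 3 reads, a single cell held over 50% of the level in 24. The values by cell therefore precede each ratio below, and the range of the ratio when each cell was left out in turn is given beside it.

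**Figure D3:**
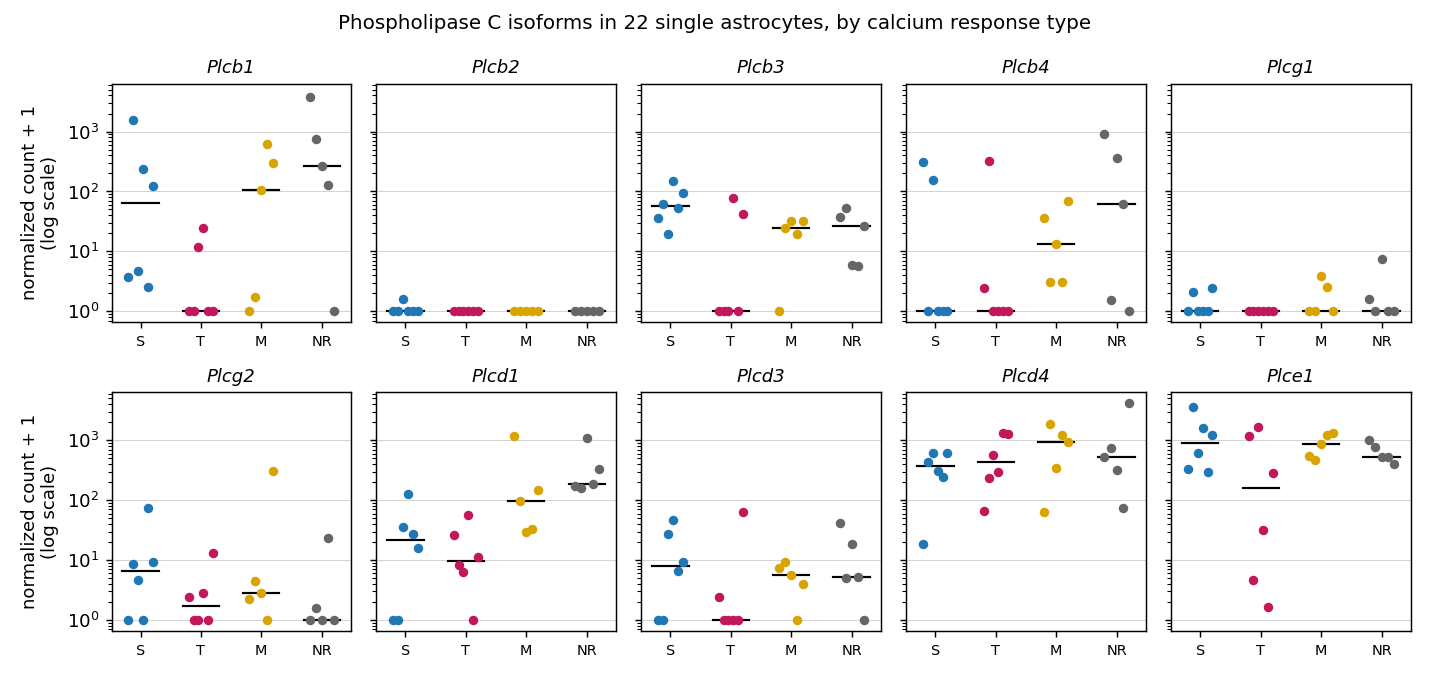
Normalized count plus 1 (log axis) of the 10 isoforms in each cell, by response type (S, T, M, NR); each point is a cell and the bar is the median of the type. All NR cells lie above all S-type and all T-type cells for Plcd1, and no other isoform separates 2 compared types.

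The beta isoforms answer to Gq-coupled receptors. Plcb1 (chr2:134786067-135475258, plus strand, GRCm38), the best studied of them in brain, had 12097 reads in 16 of 22 cells. In NR cells its normalized counts were 3769 (J182_2), 737 (J183_1), 270 (J185_4), 129 (J186_5) and 0 (J187_6). In T-type cells the values were 0 in 4 cells, 10.9 in J163_18 and 23.7 in J164_19, only 15 reads in all. T-type cells were thus at or near 0, and they overlapped NR only through NR cell J187_6. The T-type level, 5.77 (3.23 to 9.52), lay below the NR level of 981 (960 to 1003), a log2 ratio of -7.41 (counting interval -8.25 to -6.69). With each cell left out in turn the ratio stayed between -8.81 and -5.62.

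In S-type cells Plcb1 ran from 1.57 through a median of 63.4 to 1538 in J151_5, so that all 6 cells had reads and 3 of them held no more than 3.65 normalized counts. Against this level of 317, T-type was lower by a log2 ratio of -5.78 (-6.62 to -5.06), with -7.18 to -3.67 on leaving out cells, although the cells of both types overlapped. M-type cells had 0, 0.700, 106, 303 and 617. The NR level rested on J182_2, which held 76.8% of it. The ratio of S-type to NR was -1.63 with this cell and 0.16 without it, and that of M-type to NR was -2.26 with it and -0.47 without it. J182_2 had reads on 14 of the 17 microglial markers (88.5 CPM summed), whose part in its Plcb1 level was not tested. S-type cell J151_5, which held 80.7% of the S-type level, had the lowest astrocyte marker sum of the 22 cells (4874 CPM). Its neuron marker sum was the highest (2076 CPM), and the part of these markers in its level was not tested.

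Plcb4, a beta isoform known from the retina and cerebellum, had 3018 reads in 13 cells. Its NR values were 903 (J182_2), 357 (J185_4), 59.8 (J186_5), 0.567 (J183_1) and 0 (J187_6), and M-type cells held 2.08 to 68.3. Only 2 of 6 S-type cells (304 and 152.9) and 2 of 6 T-type cells (326 and 1.41) had any read. The NR level of 264 exceeded those of S-type (76.2), T-type (54.6) and M-type (24.1), but all types overlapped. Log2 ratios to NR were -1.79 for S-type, -2.27 for T-type and -3.46 for M-type. Without NR cell J182_2 they were -0.45, -0.93 and -2.12. T-type cell J162_16 alone held 99.6% of the T-type level from 90 reads, and without it the T-type ratio to NR was -9.87.

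Plcb3, a widely expressed beta isoform, had 989 reads in 17 cells and was the most evenly spread of its class among S-type cells. It shares 22 bases of exon with Ppp1r14b on the opposite strand, which had 9187 reads in 22 cells, and whether counting used the strand was not stated. All 6 S-type cells had reads, from 18.3 through a median of 56.6 to 146 normalized counts. In T-type, 4 of 6 cells had none and the other two held 76.6 and 40.4. M-type cells had 0, 18.2, 23.1, 30.9 and 31.1, and NR cells 4.78, 5.03, 26.0, 36.4 and 51.0. Plcb3 was therefore highest in S-type cells, with overlap. The log2 ratio of S-type to NR was 1.46 (1.21 to 1.70), and 1.08 to 1.91 on leaving out cells. T-type to S-type was -1.80 (-2.11 to -1.49), and -3.07 to -1.41 on leaving out cells. Plcb2, the isoform of blood cells and taste cells, had 1 read, in S-type cell J153_6. It failed the filter of reads in at least 5 cells that the other 9 isoforms passed, and no ratio is given for it.

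The gamma isoforms carry SH2 domains through which tyrosine kinases recruit them. Plcg1, the widely expressed form, had 22 reads in 6 cells, of which 10 came from NR, 9 from M-type, 3 from S-type and 0 from T-type cells. Of the NR reads 9 came from J185_4. With the T-type level set to the floor of 3 reads, T-type was 2.28-fold lower than NR. This is no lower limit, since the counting intervals of the levels overlapped (0 to 0.765 in T-type, 0.679 to 2.60 in NR). Without J185_4 no ratio of T-type or of S-type to NR could be given, since each type then had 3 reads or fewer. On leaving out each other cell the log2 ratio of T-type to NR ran from -1.51 to -0.62. The ratio of S-type to NR, -1.73, had a counting interval of -4.23 to 0.23. Plcg1 shares 379 bases of exon with Zhx3 on the opposite strand, which had 3571 reads in 17 cells, so without knowing whether counting used the strand its few reads cannot be told apart from those of Zhx3. With so few reads no order of the types could be given for Plcg1.

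Plcg2, known from B cells, platelets and microglia, had 888 reads in 13 cells, of which 700 came from M-type cell J176_25. That cell held 302 normalized counts against 0 to 3.50 in the other M-type cells. In each of the remaining types a single cell also stood apart, with 73.7 in S-type cell J155_9, 12.2 in T-type cell J166_25 and 22.1 in NR cell J186_5. The ratio of M-type to NR, 3.77 (3.30 to 4.28), became -1.45 without J176_25. The ratio of S-type to NR, 1.77, became -0.23 without J155_9. Microglial markers summed to 1.76 CPM in J176_25, 0.238 in J155_9 and 197 in NR cell J186_5, and their part in the Plcg2 levels was not tested. The levels of Plcg2 by type thus reflected single cells.

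The delta isoforms are the most sensitive to calcium. Plcd1 (chr9:119071527-119093502, minus strand), which binds its lipid substrate through a pleckstrin homology domain, had 5518 reads in 19 cells. NR cells held 157 (J183_1), 173.6 (J182_2), 189 (J186_5), 325 (J187_6) and 1085 (J185_4) normalized counts. T-type cells ran from 0 through a median of 8.75 to 56.5, and S-type cells from 0 through a median of 20.4 to 127. Every T-type and every S-type cell therefore lay below every NR cell. Plcd1 was 1 of 9 isoforms with this arrangement in both comparisons, where 1.01% of 12508 genes (T-type and NR) and 0.412% of 12621 genes (S-type and NR) did not overlap in either direction. No isoform separated T-type from S-type (0.783% of 12517 genes) or M-type from NR (0.602% of 12616 genes).

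The Plcd1 level was 386 (372 to 401) in NR, 33.8 (29.8 to 38.3) in S-type and 17.5 (13.6 to 22.2) in T-type cells. The log2 ratio to NR was -3.51 (-3.70 to -3.33) for S-type and -4.47 (-4.83 to -4.12) for T-type. On leaving out cells it ran from -4.67 to -2.64 and from -5.32 to -3.60. M-type cells held 28.1, 32.2, 97.3, 145 and 1164, overlapping both NR and S-type. The overlap with NR came only through J172_23, the highest, and the other M-type cells lay below every NR cell. The M-type ratio to NR was -0.40 with all cells and -2.35 without J172_23. The order of levels was NR, M-type, S-type and T-type, and each pair of neighbours overlapped. The highest Plcd1 values in NR, in J185_4 and J187_6, came with microglial marker sums of 3.32 and 0.792 CPM, and J186_5, with 197 CPM, held 189 normalized counts. The part of these markers in the Plcd1 levels was not tested.

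Plcd4 (chr1:74542888-74567794, plus strand) had 22494 reads and was found in every cell. Its range was 17.8 to 609 in S-type cells around a median of 372, and 66.2 to 1304 in T-type cells around 432. M-type cells held 61.9, 345, 929, 1232 and 1870, and NR cells 72.4, 314, 520, 744 and 4160. The M-type median was thus the highest and the S-type median the lowest, and all types overlapped. The ratio of S-type to NR, -1.65 (-1.71 to -1.59), was -0.16 without NR cell J187_6, which held 71.6% of the NR level. T-type exceeded S-type by 0.75, and by 0.39 to 0.99 on leaving out cells, which did not reach 2-fold. Plcd4 shares 2101 bases of exon with Zfp142 on the opposite strand, and whether counting used the strand was not stated. Zfp142 had 2083 reads in 18 cells, and its Spearman correlation with Plcd4 over the 22 cells, a description only, was 0.18.

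Plcd3, the third delta isoform, had 356 reads in 14 cells at low levels. S-type cells ranged from 0 to 46.4, T-type from 0 to 62.1, M-type from 0 to 8.40 and NR from 0 to 40.1. T-type cell J166_25 held 97.8% of the T-type level. The level of M-type was below that of NR by a log2 ratio of -1.55 (-2.12 to -1.01), but -0.51 without NR cell J182_2, so Plcd3 gave no ratio past 2-fold that lasted.

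Plce1 (chr19:38481109-38785030, plus strand), which links Ras GTPases to lipid hydrolysis, had 24076 reads, the most of the 10 isoforms, in all 22 cells. S-type cells held 298 to 3618 normalized counts around a median of 910, and J151_5, the highest, held 47.1% of the S-type level. M-type cells had 465, 541, 865, 1236 and 1349, and NR cells 404, 517, 528, 775 and 1002, so both were compact. T-type cells were uneven: J162_16 and J165_23 had a single read each, J164_19 held 31.0, J166_25 284, J161_9 1158 and J163_18 1653. The T-type level of 522 was below the S-type level of 1279 by a log2 ratio of -1.29 (-1.37 to -1.22). On leaving out cells it ran from -2.11 to -0.64, the latter without S-type cell J151_5, whose marker sums are given with Plcb1. The ratio of S-type to NR was 0.99 (0.94 to 1.04), just inside 2-fold, and that of M-type to NR was 0.47.

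Past 2-fold (a log2 ratio of at least 1 in size), 0 of 8 isoforms were higher in T-type than in S-type, beside 25.7% of 12517 genes, and 4 of 8 were lower (Plcb1, Plcg2, Plcb3 and Plce1), beside 32.5%. Against NR, 0 of 9 were higher in T-type (28.4% of 12508 genes) and 4 of 9 lower (32.8%). The 4 were Plcb1, Plcd1, Plcb4 and Plcg1, the last through the floor of 3 reads. For S-type, 2 of 9 were higher than NR (25.1% of 12621 genes), namely Plcg2 and Plcb3, and 5 of 9 lower (22.5%), namely Plcd1, Plcb4, Plcg1, Plcd4 and Plcb1. For M-type, 1 of 9 was higher than NR (19.8% of 12616 genes), Plcg2, and 3 of 9 were lower (28.1%), Plcb4, Plcb1 and Plcd3. With 8 or 9 isoforms in a comparison, these counts say little about the group beyond the shares over all genes. The last 3 comparisons share the same NR cells. The median log2 ratio of the isoforms was -1.12 in T-type against S-type, where that of all genes was -0.09. Against NR it was -0.90 in T-type (all genes -0.07), -1.63 in S-type (0.03) and -0.40 in M-type (-0.20). Without NR cell J182_2 the S-type median was 0.16, with 4 isoforms higher and 3 lower.

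**Figure D4:**
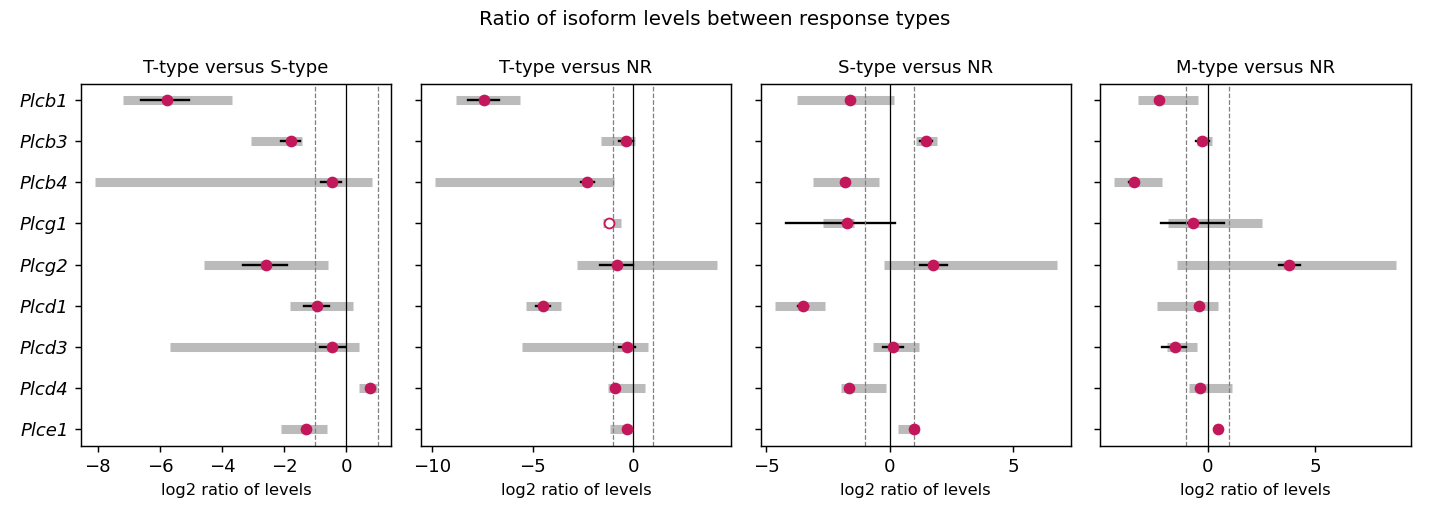
Log2 ratio of the level of each isoform between response types in 4 comparisons. Points are the ratios, thin black lines counting intervals of the pooled reads (95%) and thick grey lines the range when each cell is left out in turn. Dashed lines mark 2-fold, and the open point is a ratio set by the floor of 3 reads. Plcd1 stays past 2-fold below NR in S-type and T-type, and Plcb1 does in T-type, whichever cell is left out, whereas the grey lines of Plcg2 cross 0 in the 3 comparisons with NR.

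The activity of these enzymes depends on activators, substrate and what handles their products, read here from 57 other pathway symbols, 56 of them in the table. Among the 4 Gq family genes that activate the beta class, all 3 with a ratio were past 2-fold higher in T-type than in NR and than in S-type, beside 28.4% and 25.7% of all genes. Gnaq, at 14590 normalized counts in T-type and 5314 in NR, had a log2 ratio of 1.46, and Gna11, at 2969 and 594, one of 2.32. Both values rested on T-type cell J162_16, the cell with the second lowest size factor, and without it were 0.10 and -0.09. The third, Gna14, had 2.41, and -0.57 without T-type cell J165_23. Of the other phospholipase C family genes, Plch1 (the eta class) was higher in T-type than in NR by 2.82, and 0.79 without J166_25. Plcl1, which binds IP3 but lacks catalytic activity, was nearly level at -0.01.

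Among 13 genes of substrate supply with a ratio, 7 were past 2-fold lower and 1 higher in T-type than in S-type, beside 32.5% and 25.7% of all genes. Cdipt, which makes phosphatidylinositol, had a ratio of -1.19, and Pitpna, which carries it between membranes, 0.18. All 3 IP3 receptors were past 2-fold lower in T-type than in S-type, beside 32.5% of all genes. Itpr3 had no read in T-type cells, and without S-type cell J155_9 its ratio, set by the floor of 3 reads, was 0.35 and that of Itpr2 was -0.54. Itpr1, the main receptor form in brain, ran from 3.63 through a median of 24.2 to 2776 (J163_18) in T-type and from 483 through 1827 to 4824 in S-type cells, a log2 ratio of -1.74. In NR cells Itpr1 was at 1453 to 5928, and the T-type ratio to NR was -2.10, with -3.61 to -1.63 on leaving out cells. Only T-type cell J163_18 lay within the NR range. Itpr2, the form often named in astrocytes, had T-type ratios of -1.33 to S-type and -2.53 to NR, the latter -0.10 without NR cell J182_2.

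Of the 11 genes of DAG metabolism with a ratio, 3 were past 2-fold higher and 6 lower in T-type than in NR, beside 28.4% and 32.8% of all genes. Against S-type 5 were higher and 5 lower, beside 25.7% and 32.5%. The diacylglycerol kinases Dgkb, Dgkg and Dgkz, which turn DAG into phosphatidic acid, had every T-type cell below every NR cell. With Pi4kb of substrate supply, they made 4 of the 47 list genes with a ratio whose cells did not overlap in this comparison, beside 1.01% of 12508 genes. Dgkb was at 7.91 to 113 in NR and had 3 reads in T-type, all in J166_25. Dgkg was at 4.64 to 67.6 in NR and 0 to 3.65 in T-type, a log2 ratio of -3.82. Dgkz was at 35.9 to 117 in NR and 0 to 20.1 in T-type, a ratio of -3.50. The kinases with the highest levels, Dgkd and Dgki, had ratios of 1.00 and 1.28 that were -0.998 and -5.46 without T-type cell J163_18. Among targets of DAG, Prkca (0.06) and Prkd1 (0.71) did not reach 2-fold in T-type against NR. Among genes of IP3 metabolism Impa1 had -0.73 and Inpp5a -0.61. Over all 7 lists 10 of 47 genes were higher and 21 lower in T-type than in NR, beside 28.4% and 32.8% of all genes.

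For the 3 isoforms with the highest level per kilobase, the genes most like them were taken by Spearman correlation over the 22 cells among 10492 candidates. They were Gtf2f2 (0.76), Smad9 (0.75) and Tcp11l2 (0.73) for Plcd4. They were Tmem38b (0.83), a cation channel of the endoplasmic reticulum, Pcnx (0.82) and Zfp59 (0.79) for Plcd1. For Plce1 they were Pou3f4 (0.80), Fuk (0.78) and Dagla (0.77), the last of which cleaves DAG. Among the isoforms the highest correlation was 0.63 between Plcb1 and Plce1, and the lowest was -0.38 between Plcb3 and Plcb4. These are descriptions over cells that share response types and differ in depth, chosen as the highest of many.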

How the data were processed

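The authors amplified the RNA of each cell by antisense RNA amplification, made libraries with a stranded kit, aligned reads with STAR and deposited raw read counts per gene symbol. Per the labels counting was by HTSeq, and per the study's methods by VERSE; versions and the use of strand are not given in the sources used here. The deposited counts of all 22 cells were used, with 0 columns unused. Size factors are medians of ratios over 3670 genes with a read in every cell. Comparisons were limited to the 12719 of 23453 genes detected in 5 cells or more, and a level of 0 was set to a floor of 3 reads over the type. No ratio is given where both types had 3 reads or fewer. No test was made, since the labels name no animal or culture. Intervals are Poisson for levels and Clopper-Pearson for ratios (95%), taken from the pooled reads of a type and rescaled. Exon lengths and positions come from GENCODE vM21. The calculation of ratios was checked on simulated counts with the same dispersion for every gene. Levels resting on a single cell were not simulated, so the check does not cover them. Collection times after EtOH were not used here.

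The isoforms and lists were chosen with earlier results of these data known. All isoforms are named, as are the 2 genes of highest mean in each pathway list, genes with a mean of at least 10 whose types did not overlap, at most 3 markers per list and those without reads, and the 3 genes most like each of 3 isoforms (reads in at least 11 cells, mean of at least 10). Itpr3, Gna14, Pi4kb and the markers Olig1, Acta2 and Stmn2 were named after their values were seen. Alternatives were CPM, pooled CPM, TMM, thinning, a pseudocount of 1, medians, no filter and leaving out each cell. Tools were Python 3.11.15, NumPy 2.4.6, pandas 2.3.3, SciPy 1.17.1, matplotlib 3.10.9, R 4.3.3 and edgeR 4.0.16 (TMM factors only).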

Additional observations from a re-analysis of the deposited data

Results flagged for a closer look

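In 13 of the 34 combinations of isoform and type examined, 1 cell stood apart from the others of its type, its gap to the nearest cell being a larger part of the range than Dixon's limit allows; chance alone sets apart about 1 in 20 such groups of normally distributed values, and counts of single cells need not be normal. Plcb1 was at 1538 normalized counts in S-type cell J151_5, where the next cell had 236, and at 3769 in NR cell J182_2, where the next had 737. Plcb4 was at 326 in T-type cell J162_16, the next being 1.41. Plcg1 reached 6.47 in NR cell J185_4, from 9 reads. Plcg2 stood apart in every type, at 73.7 in S-type cell J155_9, 12.2 in T-type cell J166_25, 302 in M-type cell J176_25 and 22.1 in NR cell J186_5. Plcd1 was at 127 in S-type cell J154_8, 1164 in M-type cell J172_23 and 1085 in NR cell J185_4. Plcd3 was at 62.1 in T-type cell J166_25, and Plcd4 at 4160 in NR cell J187_6, where the next cell had 744. The cause of these values was not tested.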

How the results depend on the processing

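Of 19 ratios past 2-fold, 15 stayed past 2-fold and 16 kept their sign under every other scaling, level and filter. On leaving out cells, 8 stayed past 2-fold and 16 kept their sign wherever a ratio could be given. The 8 include Plcg1 in S-type against NR, and the 16 include Plcg1 in S-type and in T-type against NR. Neither Plcg1 ratio could be given without NR cell J185_4, since each type then had 3 reads or fewer. Of 56 counts of isoforms past 2-fold under the other scalings, levels and filters, 55 stayed within 1.5 times the count reported. The exception was 3 isoforms lower in S-type than in NR with medians of cells and a pseudocount of 1. Under the same setting Plcd3 in M-type against NR was 0.13. On leaving out each cell in turn, the count higher in T-type than in NR was 0 to 1, in S-type than in NR 2 to 4 and in M-type than in NR 0 to 2; the count lower was 4 to 5 in T-type against S-type, 3 to 6 in T-type, 3 to 5 in S-type and 1 to 4 in M-type against NR. Left out in the same way, the S-type to NR ratio ran from -0.23 to 6.77 for Plcg2 and from -3.74 to 0.16 for Plcb1, the median of the isoforms in that comparison from -1.91 to 0.16, and the M-type to NR ratio of Plcg2 from -1.45 to 8.77. CPM moved the median of all genes by -0.37 in T-type against S-type, by -0.40 in T-type against NR and by 0.10 in M-type against NR, and pooled CPM by -0.48, -0.48 and 0.11. Without T-type cells J162_16 and J163_18, an alternative chosen after seeing the data, Plcb1 and Plcd1 in T-type against NR were -7.37 and -4.07, and 5 isoforms were lower than in S-type. No paired analysis was possible because the replicate numbers only name cells and no test was made. Plcg1 and Plcb2, with 22 reads and 1 read, were too low for an order of the types.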
